A study of Rattus norvegicus with 6 samples.

Results

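Voltage-gated calcium channels open when the membrane depolarises and let calcium into the cell. The alpha1 subunit forms the pore and voltage sensor. It sets the current class: Cacna1c and Cacna1d encode L-type pores, Cacna1a the P/Q-type pore, and Cacna1g, Cacna1h and Cacna1i the T-type pores. T-type pores open at more negative voltages and inactivate quickly. The alpha2delta subunits, encoded by Cacna2d1 to Cacna2d4, are mostly extracellular proteins that raise the number of channels at the cell surface. The beta subunits bind pores such as the L-type and P/Q-type on their inner face and help them reach the membrane. In the testis, T-type currents are known from spermatogenic cells and from Leydig cells, where calcium entry takes part in hormone-driven steroid synthesis.

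The set described here is 10 such genes, 6 for alpha1 and 4 for alpha2delta subunits, taken by symbol from 35291 rows of a gene FPKM table of rat testis. FPKM are fragments per kilobase of transcript, scaled to sequencing depth, and so allow for gene length. All 10 symbols were found, each on 1 row. RNA-Seq was done on 6 Sprague-Dawley rats. The 3 diabetic (DM) rats were fed a high-fat diet for 1 month, were given 1 intraperitoneal injection of streptozotocin (STZ, a toxin of pancreatic beta cells) at 35 mg/kg, were kept where blood glucose stayed raised, and were sampled 8 weeks later. The 3 non-diabetic (ND) rats received citrate buffer. The methods state neither the ages of the rats nor the diet of the ND rats, so STZ and diet cannot be told apart. Cacna1c, Cacna2d1 and Cacna2d2 belong to a pathway network that the study drew from genes it had chosen on testes of this experiment, so these 3 are not independent evidence of a direction.

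The tissue was whole testis, and spermatid markers such as protamines summed to between 11046 and 13229 FPKM per rat. Relative depth, read from steps between low values, ran from 0.893 to 1.09, with the shallowest library in ND rat 3 and the deepest in DM rat 3. No pair of libraries was identical, and correlations of log2 values were 0.958 to 0.965 within groups and 0.957 to 0.966 between groups. In bulk tissue, fewer cells of a type and less RNA per cell cannot be told apart.

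The RefSeq promoter table (GRCr8) held windows, from 250 bases before to 50 bases after the annotated start, for 6 of the 10 members. Of its 33469 windows, the median held 7 CpG dinucleotides and 51.7% G and C. Cacna1a, Cacna1d, Cacna2d1, Cacna2d2 and Cacna2d3 had 36 to 66 CpG per window, whereas Cacna1c had 4. The windows of Cacna1d, which has the most CpG of the set, of Cacna2d3, which has the highest FPKM, of Cacna2d1, on which the comparison of the groups turns, and of Cacna1c, which has the fewest CpG, are printed 5′ to 3′ with every CpG in capitals. They lie on the minus strand at chr16:5527500-5527799, chr16:4918850-4919149, chr4:20330098-20330397 and chr4:154051699-154051998, in that order.
Cacna1d: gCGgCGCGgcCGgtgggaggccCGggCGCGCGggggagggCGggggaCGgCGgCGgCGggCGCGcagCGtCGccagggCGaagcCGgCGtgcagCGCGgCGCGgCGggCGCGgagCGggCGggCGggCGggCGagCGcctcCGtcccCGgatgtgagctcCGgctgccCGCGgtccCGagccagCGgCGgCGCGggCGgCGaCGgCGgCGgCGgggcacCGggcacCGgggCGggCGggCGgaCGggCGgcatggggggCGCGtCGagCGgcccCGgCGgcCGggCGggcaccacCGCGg
Cacna2d3: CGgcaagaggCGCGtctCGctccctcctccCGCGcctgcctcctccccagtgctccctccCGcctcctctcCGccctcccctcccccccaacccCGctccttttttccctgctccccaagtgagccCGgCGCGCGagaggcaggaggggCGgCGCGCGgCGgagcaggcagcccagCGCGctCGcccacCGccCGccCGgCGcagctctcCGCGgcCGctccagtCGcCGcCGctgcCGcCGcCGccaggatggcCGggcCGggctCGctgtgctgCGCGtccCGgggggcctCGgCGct
Cacna2d1: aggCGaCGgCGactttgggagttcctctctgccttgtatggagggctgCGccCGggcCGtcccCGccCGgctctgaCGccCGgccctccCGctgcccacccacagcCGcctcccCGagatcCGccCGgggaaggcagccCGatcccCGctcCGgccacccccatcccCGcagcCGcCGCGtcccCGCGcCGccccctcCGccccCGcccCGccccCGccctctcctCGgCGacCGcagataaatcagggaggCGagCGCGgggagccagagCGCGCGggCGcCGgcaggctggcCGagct
Cacna1c: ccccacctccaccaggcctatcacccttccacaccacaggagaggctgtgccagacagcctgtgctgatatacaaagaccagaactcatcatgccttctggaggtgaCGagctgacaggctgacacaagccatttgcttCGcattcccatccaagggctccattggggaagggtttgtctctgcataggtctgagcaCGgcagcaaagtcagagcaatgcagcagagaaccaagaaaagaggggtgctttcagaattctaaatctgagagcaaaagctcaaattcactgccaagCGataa
The Cacna1d window held 66 CpG and 88.7% G and C, and 0.00299% of all windows, which is this window alone, held as many or more. Cacna2d3 had 42 CpG, a number reached by 2.4% of windows. The Cacna2d1 window had 41, reached by 2.83%, and its 2 other annotated starts had 40 and 36. The 4 CpG of Cacna1c were reached or passed by 69.3% of windows. The letters TATAAA, searched on both strands, were in none of the 8 member windows and in 14.2% of all windows. Cacna1d, with the most CpG, had a mean level of 1.97 FPKM over the 6 rats, and Cacna2d3 had 17.2 FPKM.

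Cacna2d3 was the most abundant member in every rat, at 18.4, 17.1 and 16.1 FPKM in the DM rats and 18.1, 16.9 and 16.7 in the ND rats. Its mean level was at or above that of 76.8% of the 20338 genes tested. Cacna1h came next, at 9.06, 10.8 and 7.75 FPKM in the DM and 8.60, 9.36 and 7.43 in the ND rats. Cacna2d1 followed at 4.40 to 6.06 FPKM and Cacna1d at 1.74 to 2.13 FPKM. Each of these 4 was higher than the next gene in 6 of 6 rats, without overlap of their ranges. Below them, neighbours in the order were not separated by their spread. Cacna2d4 exceeded Cacna1c in 3 of 6 rats, Cacna1c exceeded Cacna1a in 5, Cacna1a exceeded Cacna2d2 in 4, and Cacna2d2 exceeded Cacna1i in 4. The last step was clear, since Cacna1i had 17.1 times the mean FPKM of Cacna1g, the lowest member, without overlap.

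**Figure D1:**
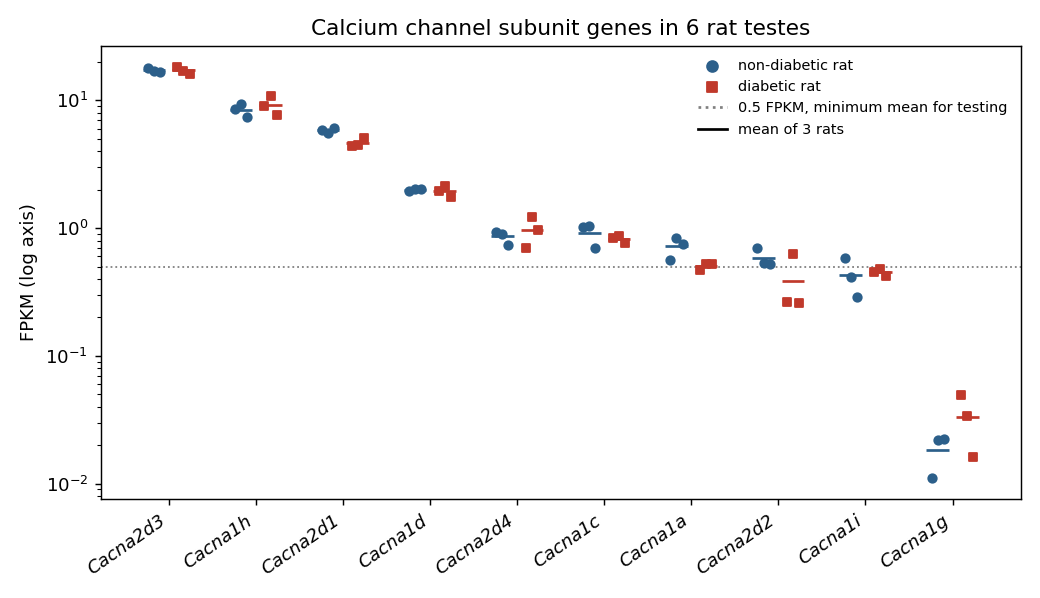
FPKM of the 10 members in each of 6 rats on a log axis, ordered by the mean over all rats, with ND rats as circles, DM rats as squares and short lines for the means of 3 rats. The dotted line marks the mean of 0.5 FPKM needed for testing, and the groups lie apart for Cacna2d1 and Cacna1a.

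The pore side was thus mostly Cacna1h. The 6 alpha1 members summed to between 11.2 and 14.8 FPKM per rat, and they carried 93.7% to 96.2% of the FPKM of all 10 alpha1 genes in the table. Cacna1h made up 93.5% to 96.0% of the 3 T-type genes. The T-type share of the alpha1 members was 74.5%, 76.4% and 73.0% in the DM rats and 72.1%, 71.5% and 69.0% in the ND rats, so every DM rat was above every ND rat. Of the L-type genes, Cacna1d had 1.92 to 2.86 times the FPKM of Cacna1c.

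On the alpha2delta side, the 4 genes summed to 23.8, 23.4 and 22.4 FPKM in the DM rats and 25.6, 23.9 and 24.0 FPKM in the ND rats. All 3 DM sums were below the ND sums. Cacna2d1 provided 18.5%, 19.2% and 22.8% of that sum in the DM rats and 22.9%, 23.4% and 25.3% in the ND rats, and Cacna2d3 provided 77.4%, 72.9% and 71.7% against 70.7%, 70.6% and 69.5%. The Cacna2d1 level was 23.9%, 26.3% and 31.7% of the Cacna2d3 level in the DM rats and 32.4%, 33.2% and 36.4% in the ND rats. The groups were apart in each of these shares, by a narrow gap between DM rat 3 and ND rat 1. These sums and shares are built from the members' values, share genes with each other and are given without a test.

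**Figure D2:**
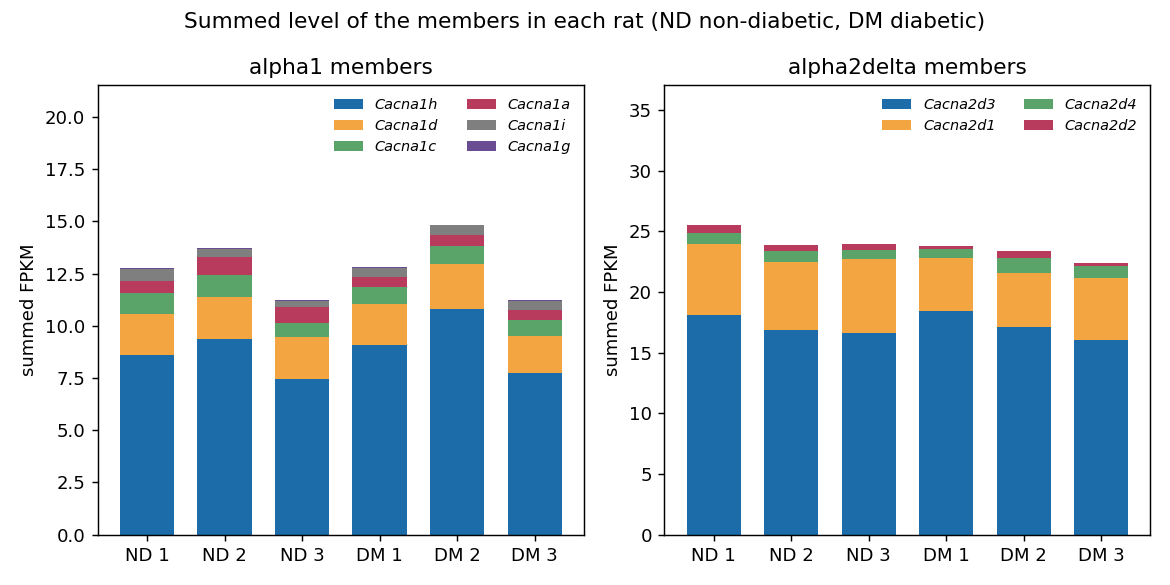
Summed FPKM of the 6 alpha1 members (left) and the 4 alpha2delta members (right) in each rat, coloured by gene. Cacna1h and Cacna2d3 form most of each bar, and the Cacna2d1 segment is shorter in the 3 DM rats.

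The comparison of DM with ND testes asks whether these genes change with diabetes. Of the 7 members that passed the filter on low genes, 5 were lower and 2 were higher in DM. Their log2 fold changes ranged from -0.42 to 0.13 with a median of -0.04, while over all genes tested the median was -0.02 and 55.6% were lower. None of the 7 had an adjusted p below 0.05 by limma (0.0344% of all genes tested did, in either direction). The study's criterion was a change of 1 or more on the log2 scale in either direction together with an unadjusted p below 0.05. None of the 7 passed it (1.24% of all genes tested did). The study screened transcripts with DESeq2, whereas the criterion was used here on gene FPKM with limma, so the 2 screens are not alike. Unadjusted, 1 of the 7 members was below 0.05, Cacna2d1, which was lower, against 4.99% of all genes tested that were lower with such a p. The groups did not overlap for 2 members, Cacna2d1 and Cacna1a, both lower in DM, against 8.42% of all genes tested. Cacna2d1, in both counts, belongs to the network drawn from genes that the study chose on testes of this experiment. Neither count is thus independent evidence of a direction. Without DM rat 2, 3 of the 7 tested members, Cacna1d added, were lower without overlap, against 13.2% of all genes tested, and Cacna2d2, below the filter, was as well. The gap of Cacna1d was narrow, 1.962 FPKM in DM rat 1 against 1.966 FPKM in ND rat 1. Leaving out any other single rat gave 2 or 3 tested members lower without overlap, against 12.5% to 15.8% of all genes tested. Without DM rat 1, 1 tested member was also higher without overlap. With 3 rats a group the exact permutation test cannot give a p below 0.1.

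Cacna2d1 encodes an alpha2delta subunit that binds gabapentin. It stood at 4.40, 4.49 and 5.09 FPKM in the DM rats and 5.86, 5.60 and 6.06 FPKM in the ND rats. Every DM rat was below every ND rat. The means were 4.66 ± 0.376 FPKM (SD, n = 3) in DM and 5.84 ± 0.228 FPKM (SD, n = 3) in ND, so the DM mean was 79.8% of the ND mean. The log2 fold change was -0.32 ± 0.10 (SE), with a 95% interval from -0.56 to -0.082. The unadjusted p of limma was 0.0153 and the adjusted p 0.551, so the gene did not pass the test over all genes. The exact permutation p was 0.1, the smallest that 3 against 3 allows. Without DM rat 1 the unadjusted limma p became 0.0514.

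Cell type markers moved between the same groups. All 5 Leydig cell markers found of 6 were lower in DM without overlap, with sums of 26.8 to 55.4 FPKM in DM and 81.6 to 115 FPKM in ND, and Cyp17a1 had an adjusted p of 0.0415. Of 5 macrophage markers, 3 were lower with an unadjusted limma p below 0.05. The sums of all 5 were 22.8 to 29.3 against 29.1 to 30.7 FPKM, and most of each was Mrc1, whose groups overlapped. The 6 peritubular and smooth muscle markers summed to 74.9 to 83.4 against 77.1 to 95.9 FPKM, and the 4 endothelial markers found of 5 to 4.45 to 5.15 against 5.10 to 6.21 FPKM. The Sertoli cell sums (8 markers) were 285 to 302 against 240 to 306 FPKM, where 6 of the 7 tested were higher in DM, Wt1 without overlap, and 1, Inha, was lower at such a p. Spermatogonial sums (6 markers) were 57.4 to 68.7 in DM and 53.4 to 57.3 in ND, with Uchl1 higher and Kit lower at such a p. Uchl1 held most of that sum, and 4 of the 6 were lower, with a median log2 fold change of -0.17. Sums of the 6 spermatocyte markers, 292 to 327 against 296 to 333 FPKM, and of the 9 spermatid markers, 11596 to 12973 against 11046 to 13229 FPKM, overlapped. No list had a marker at 0 in every rat. The part of these markers in the Cacna2d1 and Cacna1a values was not tested.

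The other alpha2delta genes are regulators of the same kind. Cacna2d3 had a log2 fold change of -0.0031 with a 95% interval from -0.19 to 0.18 and an adjusted p of 0.997, the narrowest interval of the set. Cacna2d4 was at 0.705, 1.22 and 0.973 FPKM in the DM rats and 0.936, 0.908 and 0.742 FPKM in the ND rats. These groups overlapped, and the log2 fold change was 0.13 with an interval from -0.50 to 0.75 (adjusted p = 0.955). Cacna2d2, whose mean of 0.484 FPKM was just under the 0.5 FPKM minimum, was at 0.264, 0.623 and 0.260 FPKM in the DM rats and 0.699, 0.532 and 0.524 FPKM in the ND rats. DM rats 1 and 3 were below all ND rats, while DM rat 2 lay within the ND range. Its log2 fold change was -0.58, and in a fit without the filter its interval ran from -1.44 to 0.28 with an adjusted p of 0.842. Its exact permutation p was 0.3. Without DM rat 2 the log2 fold change was -0.91.

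**Figure D3:**
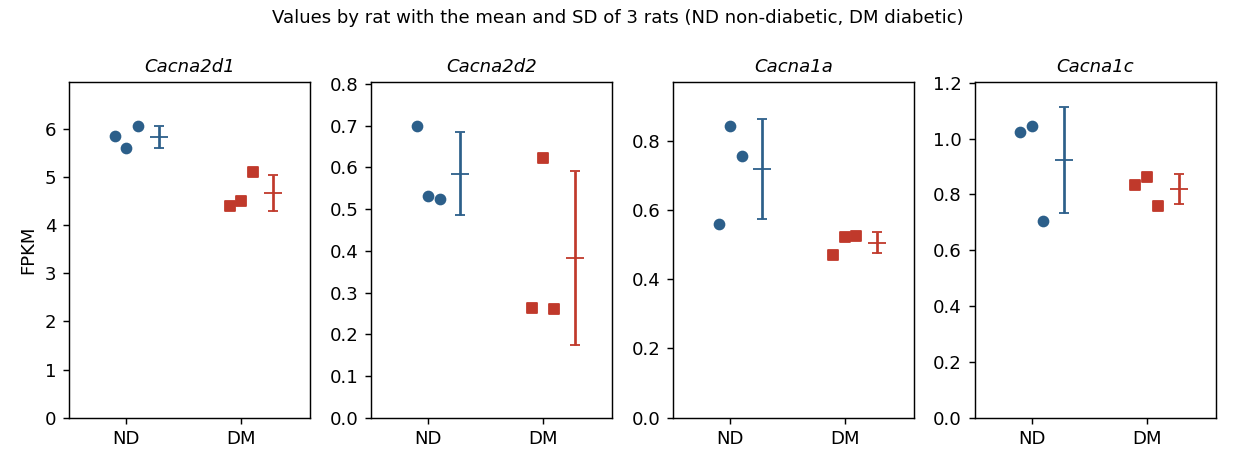
FPKM by rat, on linear axes from 0, for the 3 network genes Cacna2d1, Cacna2d2 and Cacna1c and for Cacna1a, with the mean and SD of 3 rats beside the points. The groups lie apart for Cacna2d1 and Cacna1a and overlap for the other two.

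Among the pore genes, Cacna1a, the P/Q-type pore best known from nerve terminals, was at 0.472, 0.522 and 0.524 FPKM in the DM rats and 0.560, 0.843 and 0.756 FPKM in the ND rats. The highest DM rat was close to the lowest ND rat, and the groups did not overlap. The means were 0.506 ± 0.0297 and 0.720 ± 0.145 FPKM (SD, n = 3 each), and only 3.68% of genes tested had a mean at or below that of this gene. The log2 fold change was -0.42 with an interval from -1.09 to 0.25 (adjusted p = 0.827). The exact permutation p was again 0.1.

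Cacna1c, the L-type pore of heart and smooth muscle, was at 0.833, 0.863 and 0.759 FPKM in the DM rats and 1.02, 1.04 and 0.704 FPKM in the ND rats. The lowest of all 6 values was that of ND rat 3, and the groups overlapped. The log2 fold change was -0.14 with an interval from -0.72 to 0.44 (adjusted p = 0.944). It was -0.31 without ND rat 3, -0.065 without ND rat 1, -0.051 without ND rat 2 and -0.093 without DM rat 3. Cacna1d, the L-type pore that opens at lower voltage, was at 1.96, 2.13 and 1.74 FPKM in DM and 1.97, 2.02 and 2.01 FPKM in ND. Its DM values spread to both sides of the tight ND values. The log2 fold change was -0.045 with an interval from -0.39 to 0.30 (adjusted p = 0.974).

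Of the T-type pores, Cacna1h had a log2 fold change of 0.11 with an interval from -0.23 to 0.45 (adjusted p = 0.922), with DM rat 2 the highest and ND rat 3 the lowest. Cacna1i and Cacna1g failed the filter. Cacna1i was at 0.452, 0.481 and 0.424 FPKM in the DM rats, inside the ND range of 0.583, 0.417 and 0.287 FPKM. Cacna1g was at 0.0493, 0.0340 and 0.0161 FPKM in DM and 0.0110, 0.0220 and 0.0224 FPKM in ND, which is too low to compare. The intervals of Cacna2d3, Cacna1d and Cacna1h leave out a change of the study's criterion size, a log2 fold change of 1, in either direction, and those of Cacna1c and Cacna2d4 do as well. That of Cacna1a does not.

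**Figure D4:**
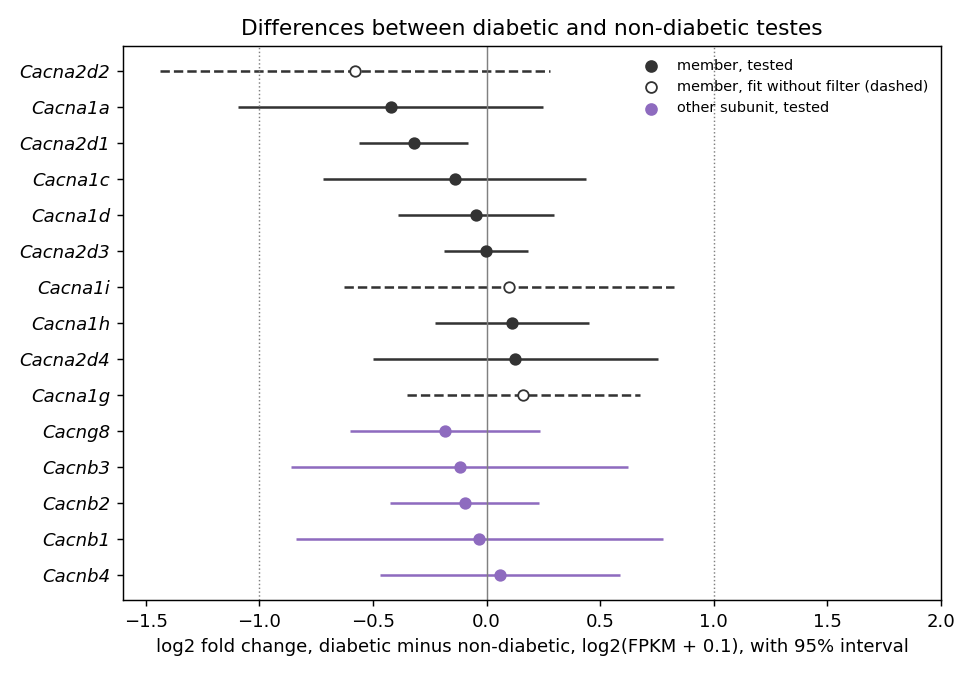
Log2 fold changes, DM minus ND, with 95% intervals for the 10 members and for the 5 tested beta and gamma genes, with open points and dashed lines for the 3 members below the filter, taken from a fit without it. Only the interval of Cacna2d1 leaves out 0, and the dotted lines mark a log2 fold change of 1 in each direction.

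The other 4 pore genes, Cacna1b (N-type), Cacna1e (R-type), Cacna1f and Cacna1s (L-type of retina and skeletal muscle), were below the filter, and Cacna1f was above 0 in ND rat 3 alone, at 0.0171 FPKM. The beta subunits are the intracellular partners of pores such as the L-type and P/Q-type. All 4 beta genes were tested, and Cacnb2 provided 40.2% to 51.1% of their sum. Cacnb2 was at 2.16, 1.91 and 1.96 FPKM in DM and 2.05, 2.30 and 2.11 FPKM in ND. Of 8 gamma genes, which include partners of glutamate receptors, Cacng8 was tested, at 1.89, 2.56 and 2.20 FPKM in DM and 2.97, 2.18 and 2.45 FPKM in ND, and it provided 71.5% to 80.2% of the gamma sum. The log2 fold changes of the 5 tested genes ran from -0.18 for Cacng8 to 0.061 for Cacnb4, and none had an unadjusted limma p below 0.05 (adjusted p 0.891 to 0.995). Among the genes below the filter, Cacng2 was listed at 0 in every rat and Cacng5 in all but DM rat 2. Cacng4 was at 0.193, 0.167 and 0.217 FPKM in DM and 0.272, 0.276 and 0.298 FPKM in ND, without overlap, and Cacng1, Cacng3, Cacng6 and Cacng7 overlapped.

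Calcium that enters through these channels meets release from stores, pumps and sensors. Of 11 genes for store release and store-operated entry (ryanodine and IP3 receptors, Stim and Orai genes), 10 were tested and none had an unadjusted limma p below 0.05. Of these 10, 1 was lower in DM without overlap of the groups, against 8.42% of all genes tested. Of 13 pump and exchanger genes, 9 were tested, of which 6 were lower and 3 higher, while 55.6% of all genes tested were lower. Of the 9, 1 had an unadjusted limma p below 0.05, Atp2b3, a plasma membrane calcium pump that was lower. Over all genes tested, 4.99% were lower with such a p, and Atp2b3 is named because of its p. Atp2b3 was at 1.17, 1.06 and 1.46 FPKM in the DM rats and 2.18, 2.48 and 2.21 FPKM in the ND rats, without overlap. Its log2 fold change was -0.85 ± 0.18 (SE), with an adjusted p of 0.326. Of 16 sensor genes (calmodulins, calmodulin kinases and calcineurin subunits), 15 were in the table on 16 rows, and none of the 15 rows tested had an unadjusted limma p below 0.05.

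Genes whose log2 values followed a member most closely over the 6 rats were listed by Pearson correlation, as a description, since the rats share the same 2 groups. For Cacna2d1 these were AABR07024542.1 (r = 0.994), Mospd2 (r = 0.993) and Ndel1 (r = 0.992), of 14987 genes whose mean was 1 FPKM or more, and 63 reached 0.95. Mospd2 was at 1.09, 1.23 and 1.46 FPKM in the DM rats and 2.01, 1.76 and 2.11 FPKM in the ND rats, so it had the same separation of groups. For Cacna1c they were Phb (r = 0.994), Cks1b (r = 0.990) and Coro1b (r = 0.987), of 14988 genes, with 48 at 0.95 or above. Phb was at 10.3, 10.2 and 9.63 FPKM in DM and 11.4, 11.6 and 9.29 FPKM in ND, with ND rat 3 the lowest, as for Cacna1c. The likeness of Mospd2 and of Phb to their members follows from the choice by correlation.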

How the data were processed

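Total RNA of testis from 3 diabetic and 3 non-diabetic rats was sequenced as paired ends after poly(A) selection, per the labels. The sample titles also name circRNA and lncRNA, and the study's methods name no selection step, so the selection is uncertain here. The authors checked reads with FastQC, compared them with rRNA using BWA, used STAR for alignment and StringTie for transcript assembly; the versions and genome build are not given in the sources used here. The deposited values are FPKM per gene, as the authors calculated them. The study's DESeq2 screen of transcripts needs counts and was not repeated.

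Here, log2(FPKM + 0.1) was compared with limma 3.58.1 (lmFit, eBayes with trend) in R 4.3.3, two-sided, for the 20338 genes whose mean over the libraries was 0.5 FPKM or more, and p-values were adjusted by Benjamini-Hochberg over all of them. Fold changes are on this scale, which understates those of low genes. For single members an exact two-sided permutation test of the difference of mean log2 values over rats was run in Python 3.11.15. The fit was checked on simulated data with planted changes larger than those of the members, so the check does not cover changes of their size. Total FPKM were 453304 to 478211 per library. Relative depth was taken from the commonest ratio of low values, shared by 30 to 57 genes per pair of libraries, and absolute depth is unknown, so no counting interval is given.

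The sample labels gave groups and replicate numbers, and p-values measure the spread between these rats. The members and gene lists were chosen with earlier results of these data known. Named genes were all members, the rest of the channel family, up to 2 rises and 2 falls per other calcium list among genes with an unadjusted p below 0.05, and the 3 genes most correlated with each network gene that passed the filter. Alternatives were other pseudocounts, filters, scalings and variance settings, a replicate block, protein-coding genes only, summed symbols and leaving out each rat. Small RNA libraries were not analysed here.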

Additional observations from a re-analysis of the deposited data

How the results depend on the processing

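No member reached an adjusted p below 0.05 or the study's fold criterion under any alternative run. With a minimum mean of 1 FPKM, 4 members were tested, of which 1 had groups without overlap and 3 were lower. The shares over all genes were not taken at this minimum. At 0.5 FPKM they were 13.0% without overlap and 55.6% lower. On leaving out single rats, 2 to 4 of all 10 members had groups without overlap in either direction (4 without DM rat 2), among them members below the filter without DM rat 2, DM rat 3 or ND rat 1. Over all genes tested 20.9% to 25.7% then did, against 13.0% with all rats. Of the 7 or 8 members then tested, 4 to 7 were lower, and the share of all genes that were lower was not taken for these fits. Cacna2d3 turned to 0.0208 (log2) with median-ratio scaling. Leaving out single rats moved the log2 fold change of Cacna1d from -0.1084 to 0.0281, of Cacna1h from -0.0078 to 0.2303, of Cacna1i from -0.1076 to 0.3020, of Cacna2d3 from -0.0538 to 0.0445 and of Cacna2d4 from -0.0432 to 0.3159, so their signs rest on single rats (DM rat 3 for Cacna1d, DM rat 2 for Cacna1h and Cacna2d4, ND rat 3 for Cacna1i, DM rat 3 and ND rat 1 for Cacna2d3). Without turning, Cacna1c ranged from -0.3054 to -0.0507, Cacna2d2 from -0.9120 to -0.4080 and Cacna1g from 0.0754 to 0.2570. The cause was not tested.

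Cacna2d1 was lower in every setting run, with a log2 fold change from -0.33 to -0.27 over the other alternatives (adjusted p 0.333 to 0.609) and from -0.38 to -0.28 without single rats (adjusted p 0.499 to 0.891). Cacna1a had an unadjusted limma p of 0.0317 when eBayes was run without the trend (adjusted p 0.593, range 0.593 to 0.846 over these alternatives). The labels do not say whether the replicate numbers pair the rats. Same-numbered rats had correlations of their deviations of 0.106, 0.0153 and 0.0979, and 2 of 3 DM rats correlated best with their own number. With 3 rats a group, these values cannot decide whether the numbers pair the rats. With the replicate block, Cacna2d1 had an unadjusted limma p of 0.0231 and an adjusted p of 0.542, and 0 members had an adjusted p below 0.05. Over all genes, 7 had an adjusted p below 0.05, against 4 with the block, 3 without a filter, 12 without the trend, 36 among protein-coding genes, 15 with symbols summed and 0 to 14 without single rats (0 without ND rat 3). With all 6 rats, Cacna1g, Cacna1i and Cacna2d2 lie under the filter and were not tested.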
